A study of Macaca mulatta with 6 samples.

Results

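Interferon-stimulated genes are the genes that cells switch on when an interferon binds its receptor. A set of 31 of them was looked up by symbol in a table of 32386 genes from rhesus macaque blood cell colonies, and a row was found for each of the 31. Of 6 colonies, 3 were TET2 uniallelic (TET2 UA, genotype TET2+/-, carrying a predicted loss-of-function mutation in 1 TET2 allele) and 3 were TET2 wild type (WT). Both groups were granulocyte-macrophage colonies (CFU-GM) grown for 14 days in MethoCult H4435 from a single CD34+ marrow cell each. Cells of both groups descended from CRISPR/Cas9-treated, autologously transplanted CD34+ cells, sampled 15 months after the transplant, so the WT colonies also came from an edited graft. How many animals gave the colonies, their ages, the guides used and any edits at other genes are unknown here. TET2 encodes a dioxygenase that oxidizes methylated cytosine, and mutations that disable it are frequent in clonal hematopoiesis.

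Type I interferons bind the receptor chains IFNAR1 and IFNAR2, which activate the kinases JAK1 and TYK2. These phosphorylate STAT proteins, among them STAT2, which joins IRF9 in the factor ISGF3 on interferon-stimulated response elements in promoters. Interferon gamma acts through IFNGR1 and IFNGR2, with JAK1 and JAK2. The induced proteins degrade or sense viral RNA, block viral entry and replication, or feed back on the pathway, and many are also kept at a low level without added interferon. These roles are known mainly from human and mouse cells.

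Library totals ran from 6334264 to 17684447 counts in TET2 UA and from 10574104 to 25485143 in WT. TET2 itself was higher in the mutant-labelled libraries, at 230.2 ± 6.64 CPM in TET2 UA and 93.6 ± 14.9 in WT (SD, n = 3 each), so its level does not check the genotype labels. CPM is the count divided by library depth, after scaling by TMM, a factor that corrects for the composition of a library. The TET2 UA libraries lay closer together than the WT ones. A chi-square of counts between pairs, per degree of freedom, was 4.29 to 5.21 in TET2 UA and 12.1 to 82.4 in WT. Sampling noise alone gives about 1. In WT, the pairs with replicate 1, the deepest library, gave 82.4 and 79.0, and replicates 2 and 3 gave 12.1. Whether the TET2 UA libraries share a source was not tested. A second fit, whose p-values are given beside most results, was made as well, with the 3 TET2 UA libraries summed to 1 sample and all spread from WT. The labels do not say that libraries of a group came from separate animals, so p-values reflect only how these libraries vary, technical variation included.

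The label was checked against granulocyte-macrophage markers. The 9 such markers found in the table summed to 27715 to 28280 CPM in TET2 UA and 1647 to 1780 CPM in WT. Of the 9, 7 were higher and 1 lower at an edgeR adjusted p under 0.05. Of all 13768 tested genes, 34.6% were called higher and 31.4% lower, the shares beside which each marker count here is to be read. MPO, the peroxidase of granulocyte precursors, averaged 16710 CPM in TET2 UA and 809 CPM in WT, and LYZ, or lysozyme, 7585 CPM in TET2 UA and 463 CPM in WT, so both carried the sums. SPI1, the myeloid transcription factor PU.1, was lower, at 62.5 CPM in TET2 UA and 174 CPM in WT, and CSF1R, the macrophage growth factor receptor, was not called. Markers of several other cell types differed between the groups as well. Those of T and NK cells did not, with overlapping sums of 23.6 to 32.9 CPM in TET2 UA and 31.1 to 35.2 CPM in WT. Of the 2 tested there, CD3D was higher and NKG7 lower. HBA2, for hemoglobin alpha, was called lower with overlapping groups, at 40.4 to 49.2 CPM in TET2 UA and 46.1 to 81.9 CPM in WT. The 3 erythroid markers found summed to 4.71 to 4.89 CPM in TET2 UA and 0.382 to 0.958 CPM in WT. Of monocyte and macrophage markers 5 of 7 were higher and 1 lower, although the sums were lower, at 623 to 638 CPM in TET2 UA and 1140 to 1536 CPM in WT. The lower marker, CD14, averaged 21.7 CPM in TET2 UA and 1145 CPM in WT, where it made up most of the sum. The 3 markers found for plasmacytoid dendritic cells, the strongest interferon producers of blood, were all higher, with sums of 455 to 477 CPM in TET2 UA and 172 to 192 CPM in WT. TCF4, at 291 CPM in TET2 UA and 174 CPM in WT, and BLNK, at 173 and 9.75 CPM, made up nearly all of these sums. CLEC4C, the most specific of the 3, was at 2.30 to 3.68 CPM in TET2 UA and had 1 count over the 3 WT libraries. The sums therefore rest on the less specific markers. Megakaryocyte markers summed to 521 to 536 CPM in TET2 UA and 5.63 to 8.44 CPM in WT. PF4 and PPBP, with means of 203 and 257 CPM in TET2 UA, made up most of the TET2 UA sum. GP9, at 7.61 CPM in TET2 UA and 4.58 CPM in WT, made up most of the WT sum, and neither GP9 nor GP1BA was called. Endothelial markers summed to 390.0 to 401 CPM in TET2 UA and 35.9 to 58.6 CPM in WT, and stromal ones to 914 to 945 and 108 to 125 CPM. Of the 5 stromal markers 4 were higher, while DCN, which made up nearly all of the WT sum, was lower, at 21.5 CPM in TET2 UA and 113 CPM in WT. All 4 B cell markers were higher, with sums of 289 to 317 CPM in TET2 UA and 49.7 to 58.7 CPM in WT. Their part in the results below was not tested. In bulk RNA of a colony, fewer cells of a type and less RNA per cell cannot be told apart.

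The interferon-stimulated genes did not move as a block between the groups. The OAS genes OAS1, OAS2 and OAS3, together with MX2, HERC5, STAT2 and IFIT2, were higher in TET2 UA, and USP18, the inhibitor of the type I interferon receptor, was lower. The 14 tested genes that were not called were IFIT1, IFIT3, MX1, RSAD2, CMPK2, SAMD9L, IFI6, ISG15, DDX58, IFIH1, IFI27, IFI44L, XAF1 and EPSTI1. Of the 31 genes, 29 had enough counts to be tested, and 12 were called higher and 3 lower at an edgeR adjusted p under 0.05. That is 51.7% called, where 66.0% of all 13768 tested genes were called. By direction, 41.4% of the tested set was higher and 10.3% lower, against 34.6% and 31.4% of all genes. With the TET2 UA libraries summed, 7 were higher and 1 lower, where 38.9% of all genes were called, 21.4% higher and 17.5% lower. These 8 genes, the OAS genes, MX2, HERC5, STAT2, IFIT2 and USP18, passed in every alternative that tested them. The median log2 fold change was 0.67 over the 29 genes and 0.12 over all genes. With no count filter the medians were 0.66 for the members and 0.91 for all 23872 genes then tested, so their order depends on the filter. Groups did not overlap for 20 of the 29, 17 higher and 3 lower, where 73.2% of all genes had groups apart, 39.2% higher and 34.0% lower. Of the 29, IFIT1, OAS1 and IFI44L reached the count filter in all TET2 UA libraries but not in all WT libraries, so counts over the tested genes are no support for a direction.

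**Figure D1:**
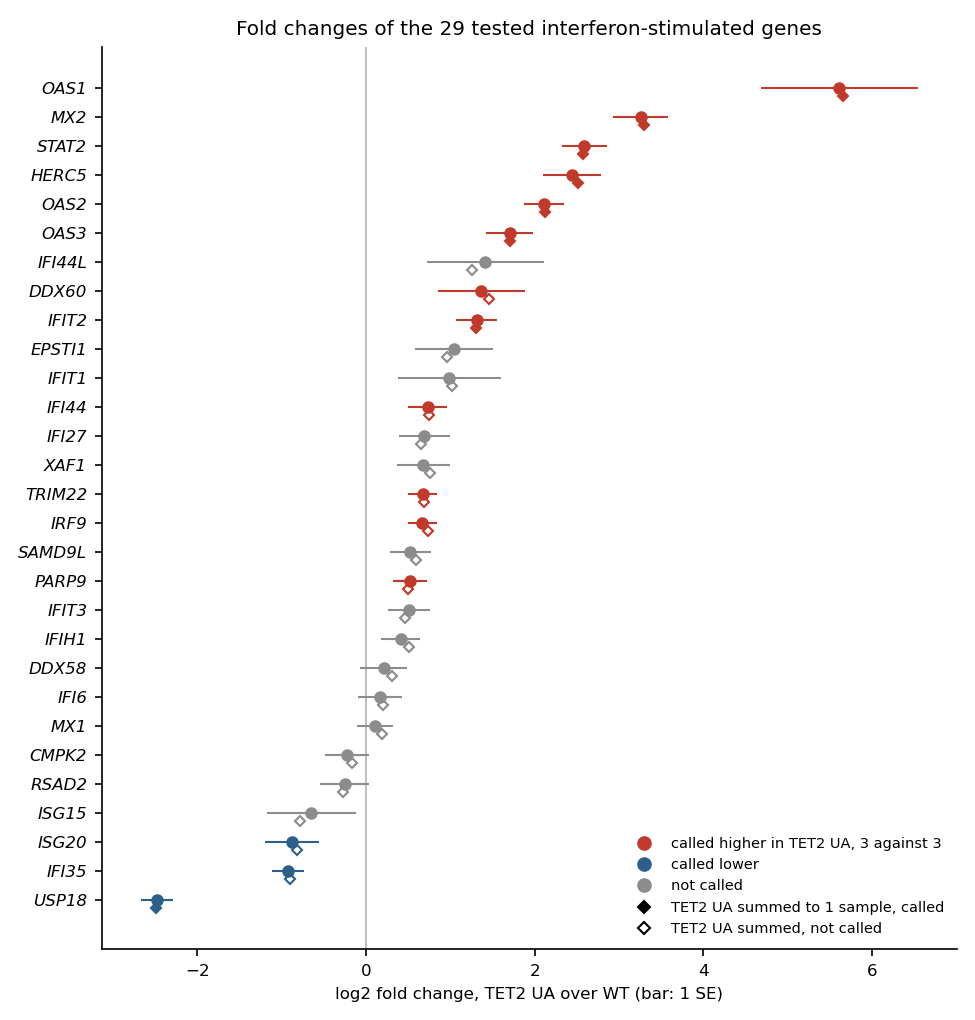
Log2 fold change (x axis) of the 29 tested interferon-stimulated genes (y axis), TET2 UA over WT. Circles with 1 SE bars come from 3 against 3 libraries and diamonds from the fit with TET2 UA summed; the 7 genes higher in both fits are OAS1, MX2, STAT2, HERC5, OAS2, OAS3 and IFIT2, and USP18 is the 1 lower in both. The OAS1 point is a fitted value for a gene with 2 counts in WT and is no bound.

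The oligoadenylate synthetases detect double-stranded RNA and make 2′-5′-linked oligoadenylates, messengers that start the breakdown of RNA. OAS2 had 103, 108 and 107 CPM in TET2 UA replicates 1 to 3, against 17.3, 34.2 and 22.6 CPM in WT replicates 1 to 3. Each TET2 UA library exceeded every WT library, with a log2 fold change of 2.11 (edgeR, SE 0.24, adjusted p = 2.42e-05, 0.000857 in the summed fit). OAS3, which prefers long RNA, had 62.0, 66.5 and 65.0 CPM in TET2 UA, against 14.0, 30.5 and 15.4 CPM in WT. Its groups were apart too, with a log2 fold change of 1.70 (edgeR, SE 0.28, adjusted p = 0.000324, 0.00741 summed). OAS1 had 37, 24 and 23 counts in TET2 UA and 2, 0 and 0 counts in WT. OAS1 was therefore near absent from the WT libraries, where 0 counts allow up to 0.286 CPM in replicate 2 and 0.252 CPM in replicate 3. Its summed ratio was 52.1 with a 95% exact counting interval of 14.0 to 438, which covers counting error only (edgeR adjusted p = 0.000321, 0.0147 summed). OASL, a family member without synthetase activity that promotes RNA sensing, was too low to test, at 1.73, 0.864 and 0.590 CPM in TET2 UA and 0.547, 0.668 and 0.168 CPM in WT, and its groups overlapped.

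OAS1, OAS2 and OAS3 belong to 1 cluster. The authors' deposited table places OAS1 on chromosome 11 from 112949175 to 112971458 and OAS2 on the same chromosome from 113012695 to 113045940. No build is named there; Mmul_8.0.1 is the one in the submitters' processing notes. OAS1 and OAS3 are direct neighbours in the RefSeq gene table. ISG20, an interferon-induced RNA exonuclease, had 7.25, 5.85 and 6.19 CPM in TET2 UA and 15.6, 7.44 and 12.4 CPM in WT. It was lower in every TET2 UA library, with a log2 fold change of -0.88 (edgeR, SE 0.32, adjusted p = 0.0307), but the call was lost in 8 of 15 alternatives. Its adjusted p was 0.0950 and 0.0593 without WT replicate 1 or 3, 0.0579, 0.0999 and 0.0816 without TET2 UA replicate 1, 2 or 3, 0.0655 with library size alone, 0.0693 with limma-voom and 0.260 in the summed fit.

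**Figure D2:**
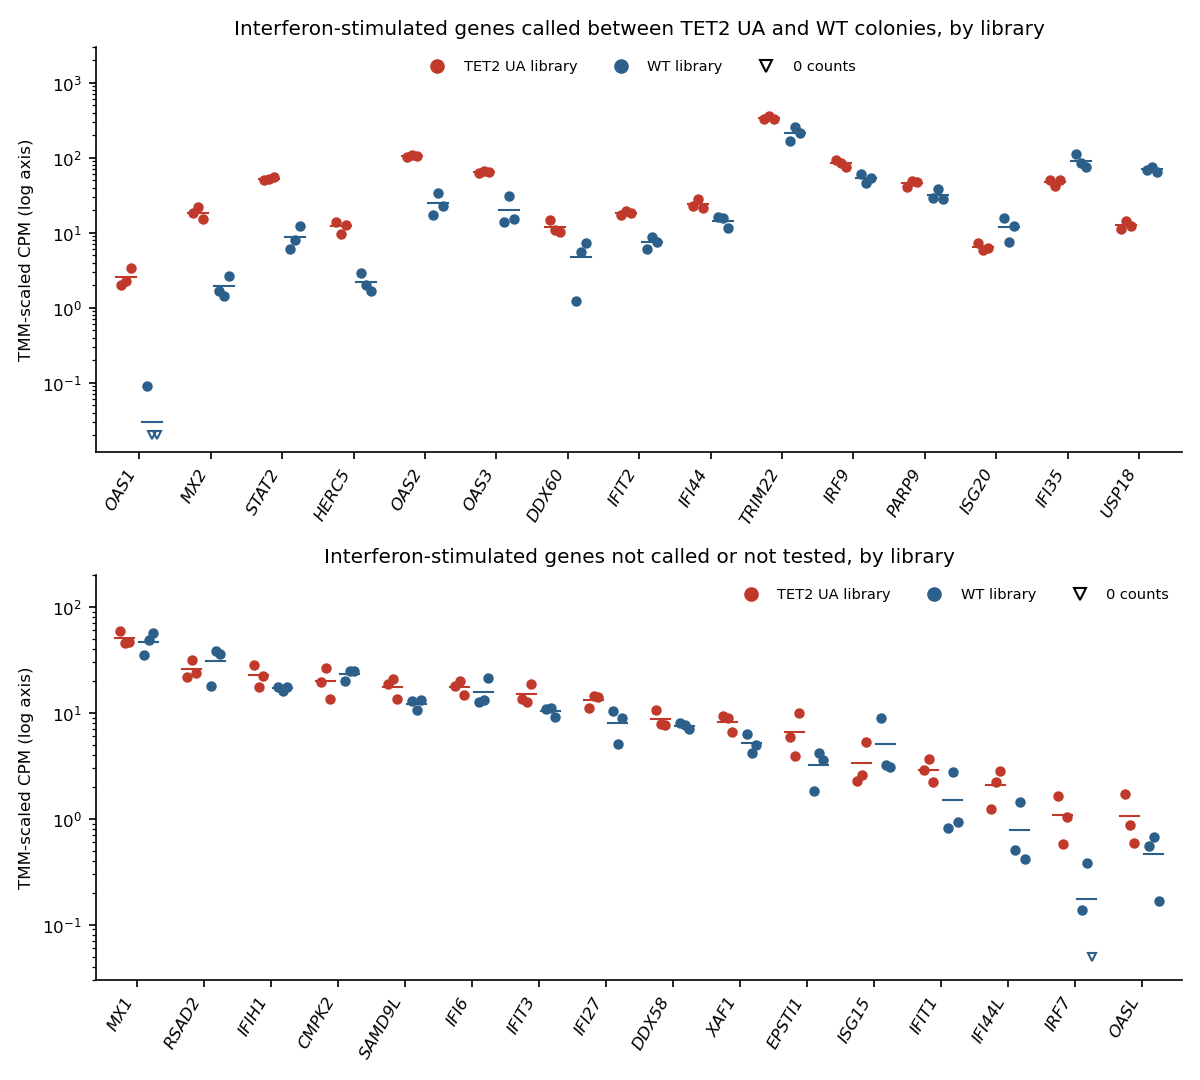
TMM-scaled CPM on a log axis for each interferon-stimulated gene (x axis) in each library, replicates 1 to 3 from left to right, with TET2 UA left of WT and a line at each group mean; open triangles mark libraries with 0 counts. The upper panel holds the 15 called genes from the highest to the lowest fold change, where no gene's groups overlap, and the lower panel the 16 others.

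Among the other antiviral effectors, the pair of MX genes, dynamin-like GTPases that trap viral capsids or nucleoproteins, behaved differently. MX2 had 18.1, 22.2 and 15.2 CPM in TET2 UA, against 1.69, 1.43 and 2.69 CPM in WT. All TET2 UA libraries lay several fold above WT, with a log2 fold change of 3.26 (edgeR, SE 0.33, adjusted p = 1.09e-05, 0.000461 summed). MX1 had 59.3, 45.5 and 47.2 CPM in TET2 UA, against 35.5, 48.5 and 57.2 CPM in WT. The MX1 groups overlapped, and its log2 fold change of 0.11 (edgeR, SE 0.21, adjusted p = 0.664) turned to -0.06 without WT replicate 1 and to -0.02 without TET2 UA replicate 1. MX1 and MX2 are direct neighbours in the RefSeq gene table, and the authors' deposited table has MX1 on chromosome 3 from 5221826 to 5251031. A test of the difference between the MX1 and MX2 responses was not run.

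The IFIT proteins bind foreign RNA by its 5′ end or block its translation. IFIT2 had 17.3, 19.6 and 18.6 CPM in TET2 UA, against 6.11, 8.68 and 7.65 CPM in WT. Its groups were apart, with a log2 fold change of 1.31 (edgeR, SE 0.24, adjusted p = 0.000671, 0.0368 summed). IFIT3, its binding partner, had 13.5, 12.6 and 18.7 CPM in TET2 UA, against 10.9, 11.2 and 9.16 CPM in WT. All TET2 UA libraries were above WT for IFIT3, but the log2 fold change of 0.51 (SE 0.25) did not pass (edgeR adjusted p = 0.0971), except with library size alone (0.0394). IFIT1 was sparse, at 2.87, 3.65 and 2.21 CPM in TET2 UA and 0.821, 2.77 and 0.924 CPM in WT. Its groups overlapped through WT replicate 2, and edgeR called it higher only when that library was left out (1.73 on the log2 scale, adjusted p = 0.0277, against 0.99 and 0.174 with it). Reads of IFIT1 may be shared with the related IFIT1B beside it. IFIT5, named after its values were seen as the next gene of this cluster, was lower, at 3.84, 3.17 and 1.92 CPM in TET2 UA and 15.3, 20.3 and 14.0 CPM in WT. Its log2 fold change was -2.42 (edgeR, SE 0.32, adjusted p = 7.1e-05, 0.00439 summed), so IFIT2 and IFIT5 of this cluster were called in opposite directions. The authors' deposited table places IFIT2, IFIT3 and IFIT1 on chromosome 9, with IFIT2 from 84486216 to 84487782 and IFIT1 from 84546959 to 84574640.

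RSAD2, or viperin, makes a chain-terminating nucleotide, and CMPK2, a mitochondrial nucleotide kinase, supplies its substrate. RSAD2 had 21.9, 31.3 and 23.9 CPM in TET2 UA and 17.7, 38.2 and 36.3 CPM in WT. CMPK2 had 19.7, 26.3 and 13.6 CPM in TET2 UA and 20.2, 25.1 and 24.6 CPM in WT. Both genes overlapped between groups and neither passed, with log2 fold changes of -0.25 and -0.22 (edgeR, SE 0.29 and 0.26, adjusted p = 0.463 and 0.466). RSAD2 was lowest in WT replicate 1, and without that library it was called lower in TET2 UA (-0.55, edgeR adjusted p = 0.0128), as it was by limma-voom with all libraries (-0.50, adjusted p = 0.0267). The ends of this gene pair overlap by position in the authors' deposited table, and the library kit marks no strand, so reads there cannot be assigned to 1 gene.

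TRIM22, a ubiquitin ligase that restricts retroviruses, had 326, 365 and 327 CPM in TET2 UA, against 167, 259 and 213 CPM in WT. It was higher in each TET2 UA library, with a log2 fold change of 0.67 (edgeR, SE 0.17, adjusted p = 0.00568), but not called in the summed fit (adjusted p = 0.125). SAMD9L, an antiviral growth suppressor mutated in inherited marrow failure, had 18.6, 20.7 and 13.4 CPM in TET2 UA and 12.9, 10.6 and 13.2 CPM in WT. The lowest TET2 UA library lay just above the highest WT library, and the log2 fold change of 0.53 (SE 0.25) missed the threshold (edgeR adjusted p = 0.0800), and passed with upper-quartile factors (0.0436) and with library size alone (0.0307). IFI6, an endoplasmic reticulum protein that limits flavivirus replication, had 17.8, 19.96 and 14.7 CPM in TET2 UA and 12.6, 13.3 and 21.2 CPM in WT. Its groups overlapped and its log2 fold change was 0.16 (edgeR, SE 0.26, adjusted p = 0.601).

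ISG15 is a ubiquitin-like protein, HERC5 the ligase that attaches it to new proteins, and USP18 the protease that removes it. USP18 also binds IFNAR2 and blocks signalling there. USP18 was the strongest fall of the set, with 11.1, 14.4 and 12.2 CPM in TET2 UA, against 69.7, 76.3 and 64.1 CPM in WT. The groups were far apart and both tight, with a log2 fold change of -2.48 (edgeR, SE 0.19, adjusted p = 2e-06, 0.000505 summed). HERC5 had 14.1, 9.79 and 12.7 CPM in TET2 UA, against 2.92, 2.004 and 1.68 CPM in WT. Each TET2 UA library exceeded every WT library, with a log2 fold change of 2.44 (edgeR, SE 0.34, adjusted p = 9.44e-05, 0.0048 summed). HERC6, its neighbour and closest relative, named after its values were seen, had a log2 fold change of 2.26 (edgeR, SE 0.26, adjusted p = 2.87e-05, 0.00143 summed). ISG15 itself was low in both groups, at 2.27, 2.59 and 5.31 CPM in TET2 UA and 8.94, 3.24 and 3.11 CPM in WT. Its groups overlapped, and its log2 fold change of -0.65 (edgeR, SE 0.53, adjusted p = 0.302) turned to 0.05 without WT replicate 1, the library with the highest value. The authors' deposited table places USP18 on chromosome 10 from 60488979 to 60519822 and HERC5 on chromosome 5 from 86864535 to 86914416.

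Of DDX58, IFIH1 and DDX60, helicases that sense viral RNA in the cytosol or aid its sensing, none passed in both fits. DDX58, or RIG-I, which binds short RNA with a 5′ triphosphate, had 10.7, 7.77 and 7.66 CPM in TET2 UA and 8.07, 7.63 and 6.98 CPM in WT. IFIH1, or MDA5, which binds long double-stranded RNA, had 28.2, 17.7 and 22.1 CPM in TET2 UA and 17.4, 16.2 and 17.6 CPM in WT. The DDX58 groups overlapped, and the lowest TET2 UA value of IFIH1 lay barely above WT. Their log2 fold changes were 0.21 and 0.41 (edgeR, SE 0.28 and 0.23, adjusted p = 0.519 and 0.138). DDX60, a helicase that aids RIG-I, had 14.8, 10.7 and 10.2 CPM in TET2 UA, against 1.23, 5.63 and 7.40 CPM in WT. The DDX60 groups did not overlap, the highest WT library was 6.01 times the lowest, and its log2 fold change of 1.37 (SE 0.52) was called (edgeR adjusted p = 0.0367). The DDX60 call was lost without WT replicate 2 (adjusted p = 0.0529), without TET2 UA replicate 1, 2 or 3 (0.119, 0.0696 and 0.0578) and in the summed fit (0.114).

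Of the transcription factors in the set, STAT2 and IRF9 are the subunits that give ISGF3 its type I interferon specificity. STAT2 had 50.7, 51.8 and 56.2 CPM in TET2 UA, against 6.16, 8.02 and 12.4 CPM in WT. The lowest TET2 UA value was several fold above the highest WT value, with a log2 fold change of 2.59 (edgeR, SE 0.27, adjusted p = 1.27e-05, 0.000413 summed). IRF9 had 93.0, 85.6 and 75.5 CPM in TET2 UA, against 60.4, 46.7 and 53.2 CPM in WT. IRF9 was higher in each TET2 UA library by a log2 fold change of 0.66 (edgeR, SE 0.17, adjusted p = 0.00561), which the summed fit did not call (adjusted p = 0.108). IRF7, the factor that amplifies type I interferon production, had 30, 6 and 7 counts in TET2 UA and 3, 4 and 0 counts in WT. In the main fit IRF7 was below the count filter. It entered some fits with 1 library left out through TET2 UA replicates 1 and 3 alone, so calls there are no support for a direction. EdgeR called IRF7 higher without WT replicate 2 (3.58 on the log2 scale, adjusted p = 0.0216) and without TET2 UA replicate 2 (2.97, 0.0474). It was not called by edgeR without WT replicate 1 (2.51, 0.0683), without WT replicate 3 (2.17, 0.0684) or without a filter (2.63, 0.0696). The fits without TET2 UA replicate 1 or 3 did not test it.

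The remaining members are interferon-induced proteins with less defined or regulatory roles. IFI35, a leucine zipper protein that binds NMI, had 50.7, 42.0 and 51.1 CPM in TET2 UA, against 112, 85.2 and 76.2 CPM in WT. All TET2 UA libraries were lower, by a log2 fold change of -0.93 (edgeR, SE 0.19, adjusted p = 0.00138), which the summed fit did not call (adjusted p = 0.0769). IFI44, an antiviral protein that slows cell growth, had 22.6, 28.02 and 21.7 CPM in TET2 UA, against 16.0, 15.9 and 11.4 CPM in WT. Its groups were apart, with a log2 fold change of 0.73 (edgeR, SE 0.23, adjusted p = 0.0157), and the call was lost without TET2 UA replicate 2 (adjusted p = 0.0836) and in the summed fit (0.178). PARP9, an ADP-ribosyltransferase that works with the ligase DTX3L, had 40.9, 49.4 and 46.9 CPM in TET2 UA, against 28.7, 38.7 and 28.2 CPM in WT. The PARP9 groups were narrowly apart, with a log2 fold change of 0.52 (edgeR, SE 0.20, adjusted p = 0.0363). That call was lost without WT replicate 3 (adjusted p = 0.108), without TET2 UA replicate 1, 2 or 3 (0.0604, 0.138 and 0.109), with no count filter (0.0635) and in the summed fit (0.327).

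IFI27, a mitochondrial protein and common blood marker of interferon exposure, had 11.1, 14.5 and 14.0 CPM in TET2 UA and 10.3, 5.06 and 8.91 CPM in WT. XAF1, a promoter of apoptosis, had 9.25, 8.92 and 6.63 CPM in TET2 UA and 6.29, 4.20 and 4.96 CPM in WT. Both lay above WT in each TET2 UA library but missed the threshold, with log2 fold changes of 0.69 and 0.68 (edgeR, SE 0.30 and 0.31, adjusted p = 0.0657 and 0.0744). Without WT replicate 1, their log2 fold changes were 0.90 and 0.85 and both were called (edgeR adjusted p = 0.0147 and 0.0371). Both also passed with all 6 libraries under upper-quartile factors (adjusted p = 0.0419 and 0.0461), library size alone (0.0248 and 0.0266) and limma-voom (0.0279 and 0.0450). EPSTI1, an epithelial-stromal interaction protein, had 5.95, 3.93 and 9.88 CPM in TET2 UA and 1.82, 4.20 and 3.61 CPM in WT. Its groups overlapped, and its log2 fold change of 1.04 (edgeR, SE 0.46, adjusted p = 0.0688) was called only without TET2 UA replicate 2 (1.30, adjusted p = 0.0460) and with no count filter (1.02, 0.0479). IFI44L, the relative of IFI44 beside it, had 65 counts in TET2 UA and 31 in WT and a log2 fold change of 1.41 (edgeR, SE 0.69, adjusted p = 0.0942), and without WT replicate 2 it was called (2.11, adjusted p = 0.0354).

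Inside the groups, the set varied more in WT than in TET2 UA. The highest of 3 libraries was 1.64 times the lowest at the median in WT and 1.39 times in TET2 UA, against 1.60 and 1.23 times for all tested genes. Among tested genes with no WT library at 0, the widest WT ranges belonged to DDX60, IFI44L and IFIT1, and the tightest TET2 UA ranges to OAS2, OAS3, TRIM22 and STAT2. WT replicate 1, the deepest library, was the lowest of the WT libraries for 12 of the 29, including OAS2, OAS3, STAT2, RSAD2, MX1 and TRIM22, and the highest for 9, including ISG15, ISG20, IFI35 and IRF9. Replicates 2 and 3 were the lowest for 7 and 9. Over all genes WT replicate 1 was the lowest for 40.1%, replicate 2 for 31.7% and replicate 3 for 28.3%, so the shares in the set were close to the background. Summed over the 31 genes, CPM was 1060, 1100 and 1032 in TET2 UA replicates 1 to 3 and 683, 812 and 737 in WT replicates 1 to 3. TRIM22 was the largest single contributor in each library.

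**Figure D3:**
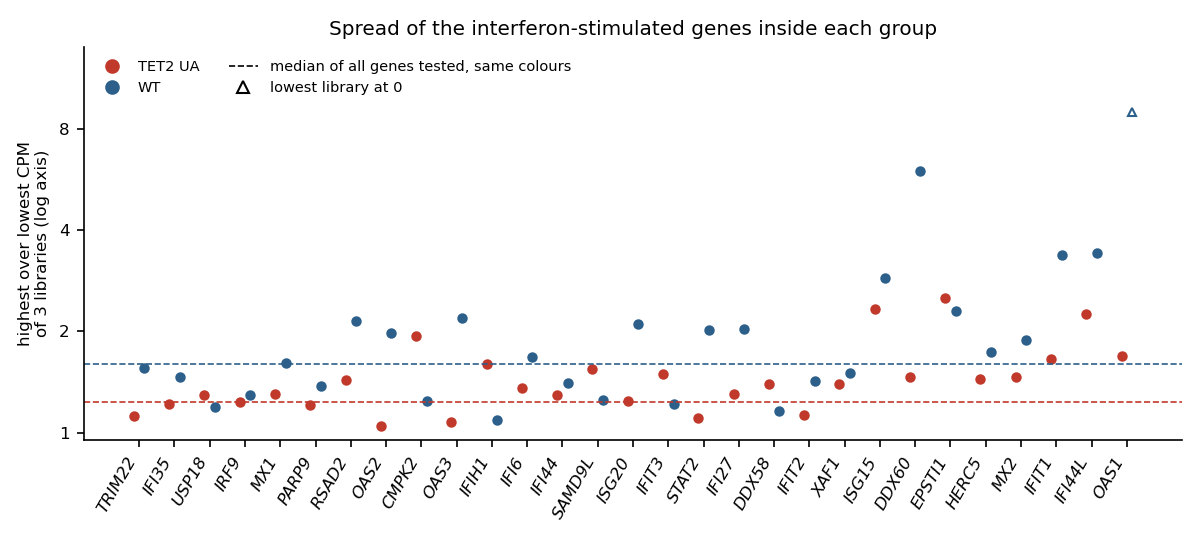
Ratio of the highest to the lowest TMM-scaled CPM among the 3 libraries of a group (y axis, log scale) for each tested interferon-stimulated gene (x axis, from high to low WT mean), TET2 UA left of WT, with dashed lines at the median over all tested genes. DDX60 and IFI44L are widest in WT among genes with a ratio there; the open triangle stands for OAS1 in WT, whose lowest library had 0 counts.

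Transcripts of the interferon genes that were found were scarce in both groups. Of 18 interferon genes listed, 7 had rows in the table and none of the 7 reached the count filter. The others were not read, and they may be among the 13296 of 32386 rows without a symbol. IFNB1, the interferon made first after sensing, had 3, 17 and 4 counts in TET2 UA and 0, 3 and 0 in WT, with 17 of its 24 TET2 UA counts in replicate 2. IFNE, an epithelial interferon, had 29, 0 and 3 counts in TET2 UA and none in WT, and IFNG had 7, 0 and 0 counts in TET2 UA and none in WT. These counts sat mainly in a single TET2 UA library each. IFNA2, IFNA8, IFNL1 and IFNL3 had at most 2 counts in any library.

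Among receptor and kinase genes upstream of the set, JAK2 was much higher and the gamma receptor chain IFNGR2 far lower. Of 10 tested receptor, kinase and STAT genes, 4 were higher and 2 lower, where 34.6% and 31.4% of all genes were. In the summed fit 1 was higher and 1 lower, where 21.4% and 17.5% of all genes were. IFNAR1 had 47.1, 40.5 and 42.3 CPM in TET2 UA and 29.5, 37.2 and 36.3 CPM in WT, and IFNAR2 had 19.6, 18.6 and 18.4 CPM in TET2 UA and 21.0, 18.99 and 23.2 CPM in WT. Neither type I receptor chain passed, with log2 fold changes of 0.34 and -0.16 (edgeR, SE 0.18 and 0.20, adjusted p = 0.126 and 0.515). IFNGR2 had 29.8, 34.2 and 28.6 CPM in TET2 UA, against 361, 318 and 289 CPM in WT. Its log2 fold change was -3.39 (edgeR, SE 0.17, adjusted p = 1.12e-07, 3.69e-05 summed), whereas its partner IFNGR1 had one of 0.31 (edgeR, SE 0.14, adjusted p = 0.0768). Without WT replicate 1 IFNGR1 was called higher (0.24, adjusted p = 0.0239). JAK2 had 117, 121 and 110 CPM in TET2 UA, against 10.3, 25.9 and 27.8 CPM in WT, with a log2 fold change of 2.46 (edgeR, SE 0.32, adjusted p = 5.77e-05, 0.000676 summed). JAK1 and TYK2 had log2 fold changes of 0.55 and 0.75 (edgeR, SE 0.16 and 0.20, adjusted p = 0.00929 and 0.00597), which the summed fit did not call (adjusted p = 0.192 and 0.129).

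IRF1, a factor induced by interferon gamma, had 386, 405 and 399 CPM in TET2 UA, against 38.7, 54.2 and 71.6 CPM in WT. Its log2 fold change was 2.86 (edgeR, SE 0.22, adjusted p = 1.84e-06, 2.93e-05 summed). The feedback inhibitor SOCS1 had 4.33, 4.03 and 4.57 CPM in TET2 UA, against 13.7, 8.11 and 9.58 CPM in WT. SOCS1 was lower in each TET2 UA library like USP18, with a log2 fold change of -1.29 (edgeR, SE 0.31, adjusted p = 0.00369, 0.0931 summed). SOCS3 had a log2 fold change of -0.47 (edgeR, SE 0.34, adjusted p = 0.251).

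**Figure D4:**
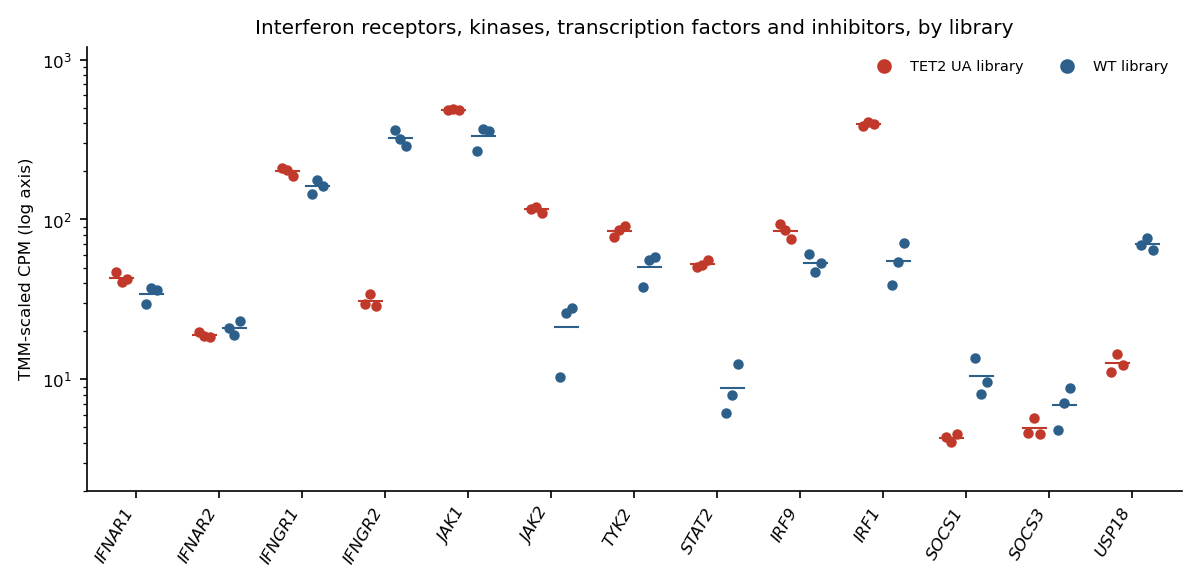
TMM-scaled CPM on a log axis of interferon receptors, kinases, transcription factors and inhibitors (x axis) in each library, replicates 1 to 3 from left to right, TET2 UA left of WT, with a line at each group mean. JAK2, STAT2 and IRF1 lie above WT in every TET2 UA library and IFNGR2, SOCS1 and USP18 below, while IFNAR2 and SOCS3 overlap.

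Other genes of the pathway were called in both directions, as were genes at large, of which 34.6% were higher and 31.4% lower. Of the 94 other pathway genes tested, 7 reached the count filter in all TET2 UA but not all WT libraries, HELZ2 among them, so counts over these lists support no direction. Of 15 tested inhibitors and IRF-type regulators 6 were higher and 4 lower, among them IRF8, a factor of myeloid and dendritic cell development, and FOXO3, which restrains IRF7 expression, with log2 fold changes of 2.13 and 2.20 (edgeR, SE 0.15 and 0.16, adjusted p = 1.17e-06 and 1.25e-06, 0.000118 and 0.000162 summed). Of 25 sensors and adaptors upstream of interferon, 10 were higher and 11 lower. SAMHD1, a nucleotide hydrolase, and ADAR, an RNA editor, both of which limit self nucleic acid sensing, had log2 fold changes of 2.82 and 1.60, and RNASEH2C, a subunit of RNase H2, one of -2.09 (edgeR, SE 0.23, 0.20 and 0.24, adjusted p = 2.61e-06, 4.25e-05 and 2.8e-05, and 3.98e-05, 0.00227 and 0.00306 summed). IRF3, the factor that starts interferon transcription, had one of -0.87 (edgeR, SE 0.16, adjusted p = 0.000518), which the summed fit did not call (adjusted p = 0.0780). Of 44 other interferon-induced genes tested, 15 were higher and 19 lower, with a median log2 fold change of -0.12. ZC3HAV1, the zinc finger antiviral protein, and HELZ2, a helicase coactivator, had log2 fold changes of 4.02 and 4.47, and IDO1, a tryptophan-degrading enzyme, one of -3.61 (edgeR, SE 0.27, 0.36 and 0.18, adjusted p = 9.1e-07, 2.21e-06 and 1.25e-07, and 1.06e-05, 0.000111 and 3.3e-05 summed). HELZ2 had 579 counts in TET2 UA and 33 in WT. In the summed fit 23 of the 94 other pathway genes were higher and 17 lower, where 21.4% and 17.5% of all genes were. With 3 libraries a group, 35 were higher and 36 lower.

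**Figure D5:**
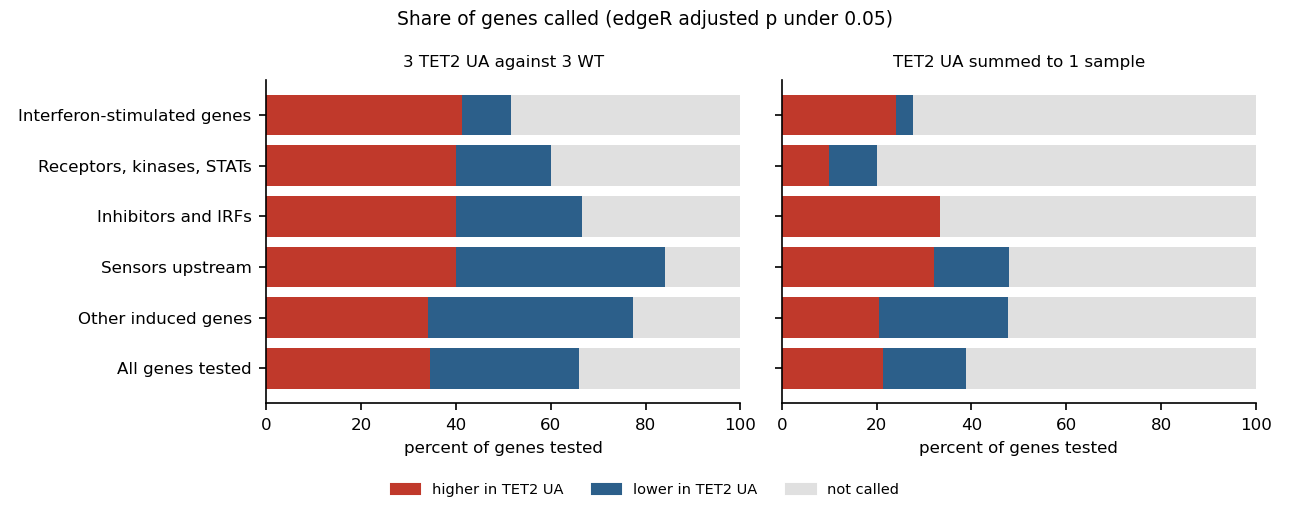
Percent of tested genes (x axis) called higher in TET2 UA (red), called lower (blue) or not called (grey) for the interferon-stimulated genes, the other pathway lists and all 13768 genes (y axis); left, 3 against 3 libraries, right, TET2 UA summed to 1 sample. The interferon-stimulated genes have 41.4% higher and 10.3% lower in the left panel, against 34.6% and 31.4% of all genes.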

How the data were processed

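RNA of 6 colonies was made into libraries with SMART-Seq V4 and Nextera XT, per the labels' protocols, a kit that marks neither strand nor molecule. Mmul_8.0.1 and bcl2fastq appear in the submitters' processing notes; for aligner and counter, nothing is given in the sources used here. Raw counts per gene were deposited. A second deposited table gives, by its header, each gene's mean normalized count (used as a signal), its log2 fold change and error, a score (the test statistic), and a p-value. That table was used for symbols and coordinates.

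The members and lists were chosen with earlier results of these data known. IFIT2 was matched through the RefSeq protein in its deposited description, the others by symbol (DDX58 also as RIGI). Of 32386 rows, 13296 have no symbol. The pathway lists name 130 genes, of which 103 have rows.

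The test was edgeR 4.0.16 under R 4.3.3 (quasi-likelihood, robust, TMM factors 0.86 to 1.07, filterByExpr at minimum count 10 and total 15, about 0.886 CPM in 3 libraries), with Benjamini-Hochberg adjustment over 13768 genes. The fit was tested on simulated data in which few genes changed, equally up and down. That setting does not check calls when as many genes are called as here. Called members have every library's value given, other members those with a mean of 5 CPM or more, and up to 3 genes per pathway list are named by smallest p beside fixed signalling genes. A count of 0 allows 3 counts. Alternatives were other scalings, filters, DESeq2 1.42.0, limma 3.58.1 (voom), a replicate block, each library left out, and the TET2 UA libraries summed. Some pathway genes are counted in their lists but not reported singly here.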

Additional observations from a re-analysis of the deposited data

Results flagged for a closer look

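The authors' deposited table of differential expression holds values for 26 of the 31 interferon-stimulated genes, and for 12 of these its mean of normalized counts is above the highest raw count in any of the 6 libraries. In the authors' deposited table IFIT1 has a mean of 5711, against at most 53 counts in a library here, IFI27 one of 94469 against at most 226, and IFIT3 one of 3987 against at most 249. Over all genes of that table with a row in the count table, 51.7% have such a mean, and 3471 have 0 counts in all 6 libraries. Of the 26, 22 have a positive and 4 a negative log2 fold change in the authors' deposited table, the negative ones including OAS1 with -2.16 and OAS2 with -1.15. Which libraries and groups that table compares is unknown here, so its fold changes are not set against the comparison of the 6 colonies.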

How the results depend on the processing

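Across 15 alternatives, 8 of the 15 called genes were called the same way in each one that tested them: IFIT2, MX2, OAS1, OAS2, OAS3, HERC5, STAT2 and USP18 (OAS1 fell out of the stricter filter). With the 3 TET2 UA libraries summed to 1 sample, 7 members were higher and 1 lower, 23 other pathway genes higher and 17 lower, and 2950 of all genes higher and 2410 lower, against 4770 and 4321. That fit has fewer samples. Leaving out 1 library gave 10 to 14 members higher and 2 to 3 lower. Other scalings, filters and tests gave 11 to 16 higher. Library size alone moved the median of all genes by 0.16 on the log2 scale and that of the members to 0.83. With no count filter the median of all genes moved by 0.79, to 0.91, above that of the members at 0.66. Signs turned for MX1 (from -0.064 without WT replicate 1 to 0.27 without WT replicate 3, and -0.019 without TET2 UA replicate 1), ISG15 (-1.09 without TET2 UA replicate 3 to 0.048 without WT replicate 1) and IFNAR2 (0.0031 with library size alone); these are log2 fold changes, and the cause was not tested. The labels number the replicates 1 to 3 in both groups without saying that numbers pair colonies. Deviations of same-numbered libraries correlated at 0.013 to 0.022, each the highest for its number. These values are small and do not settle whether numbers pair colonies, and the main fit did not pair them. With a replicate block, 12 members were higher and 3 lower, as without it. At these depths members under about 1 CPM, such as IRF7 and OASL, could not be tested.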
